A study of Mus musculus with 6 samples.

Results

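The clock output genes described here are 9 of the 47719 genes in the deposited FPKM table: Dbp, Tef, Hlf, Nfil3, Bhlhe40, Bhlhe41, Ciart, Rora and Usp2. They were taken by gene symbol as the PAR bZIP factors, the factor that opposes them and other direct outputs of the circadian clock, and each symbol matched 1 gene identifier that was also present in every count file. All 9 passed the filter on low counts. The libraries came from livers of C57BL/6 mice fed 0.1% DDC for 17 days, a porphyrinogenic diet that injures hepatocytes and bile ducts. There were 3 libraries labelled as Atoh8 knockdown (shAtoh8 in the series design) and 3 control libraries, which the titles call WT and the series design calls shNC. Both groups received the diet, so no library shows an uninjured liver. The labels used here name neither the vector nor the promoter that carried the short hairpins, and give no sex, no age and no clock time at which livers were taken. The source is given as liver and the cell type as hepatocyte. Nothing in the labels says that replicates were separate animals, and p-values then cover only the spread between libraries, which may be technical.

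In the liver the clock is a loop in which the activators CLOCK (or NPAS2) and BMAL1 bind E-boxes and switch on their own repressors, the PER and CRY proteins, as well as the nuclear receptors REV-ERB alpha and beta. Output factors carry this rhythm to metabolic genes. DBP, TEF and HLF, the proline and acidic amino acid-rich (PAR) bZIP factors, activate genes through the D-box, and NFIL3, also called E4BP4, represses through the same element. RORA activates through the ROR element, at which the REV-ERB receptors repress. In mouse liver the level of several of these transcripts, Dbp above all, changes widely over the day.

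Promoter windows from RefSeq (GRCm38.p6), reaching 250 bases upstream and 50 bases downstream of a transcription start, were found for 8 of the 9 genes in 9 windows, since Tef has 2 starts. The windows of 4 genes are shown because Tef and Ciart shared their highest value in the same control library, and because the activator and the repressor elements of the clock can be read in them. Usp2, whose window is not shown, was also highest in that library. Capitals mark the E-box CACGTG in Ciart, Tef and Bhlhe41 and the core of the ROR element, AGGTCA, which reads TGACCT on the printed strand of Nfil3. All are written 5′ to 3′ on the strand of the gene.
Ciart, chr3:95882179-95882478, minus strand: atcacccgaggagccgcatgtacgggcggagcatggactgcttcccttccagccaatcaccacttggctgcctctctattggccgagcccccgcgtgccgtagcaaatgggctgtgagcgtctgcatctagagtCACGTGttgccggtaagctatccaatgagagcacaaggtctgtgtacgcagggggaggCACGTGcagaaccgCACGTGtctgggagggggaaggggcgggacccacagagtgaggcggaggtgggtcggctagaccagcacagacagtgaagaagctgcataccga
Tef first start, chr15:81802423-81802722, plus strand: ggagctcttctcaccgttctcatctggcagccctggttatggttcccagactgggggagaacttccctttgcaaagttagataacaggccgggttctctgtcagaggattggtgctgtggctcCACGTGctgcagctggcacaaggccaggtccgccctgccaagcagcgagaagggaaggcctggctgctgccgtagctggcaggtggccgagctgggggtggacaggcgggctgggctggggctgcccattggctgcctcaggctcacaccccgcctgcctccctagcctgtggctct
Tef second start, chr15:81811164-81811463, plus strand: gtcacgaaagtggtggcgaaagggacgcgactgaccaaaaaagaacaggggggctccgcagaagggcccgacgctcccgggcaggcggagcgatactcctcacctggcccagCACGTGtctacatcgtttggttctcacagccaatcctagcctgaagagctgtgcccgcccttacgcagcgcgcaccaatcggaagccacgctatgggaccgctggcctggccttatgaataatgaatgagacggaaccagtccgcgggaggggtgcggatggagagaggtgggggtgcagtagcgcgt
Bhlhe41, chr6:145865371-145865670, minus strand: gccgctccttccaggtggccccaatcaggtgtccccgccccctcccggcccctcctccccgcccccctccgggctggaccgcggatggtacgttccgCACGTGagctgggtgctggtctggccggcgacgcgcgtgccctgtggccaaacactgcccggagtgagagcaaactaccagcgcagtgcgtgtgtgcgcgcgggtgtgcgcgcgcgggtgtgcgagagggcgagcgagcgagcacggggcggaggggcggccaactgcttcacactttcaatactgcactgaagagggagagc
Nfil3, chr13:52980990-52981289, minus strand: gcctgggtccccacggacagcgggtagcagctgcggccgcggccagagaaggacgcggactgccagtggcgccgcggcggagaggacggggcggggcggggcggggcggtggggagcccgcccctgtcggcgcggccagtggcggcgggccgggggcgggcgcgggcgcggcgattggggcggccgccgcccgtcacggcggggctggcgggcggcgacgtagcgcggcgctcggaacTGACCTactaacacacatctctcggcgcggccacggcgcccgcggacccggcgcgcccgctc
The Ciart window held 3 E-boxes, whose first bases lay 116, 58 and 44 bases upstream of the start. Of 32851 promoter windows of this length, 7.15% held an E-box and 0.0883% held 3 or more. Each Tef window held 1 E-box, 127 and 138 bases upstream, and the Bhlhe41 window held 1, 153 bases upstream. The ROR element core of Nfil3 began 12 bases upstream of the start, and 16.3% of all windows held this core. The Hlf window held 1 cyclic AMP response element (TGACGTCA), found in 1.79% of windows. No window of these genes held the variant E-box CACGTT (4.68% of windows) or either D-box spelling, TTACGTAA or TTATGTAA (1.06% of windows together). Both strands were searched, none of the matches overlapped another, and the windows of Dbp, Rora and Usp2 held none of the motifs. A match is a description of the sequence, and no binding was measured here.

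**Figure D1:**
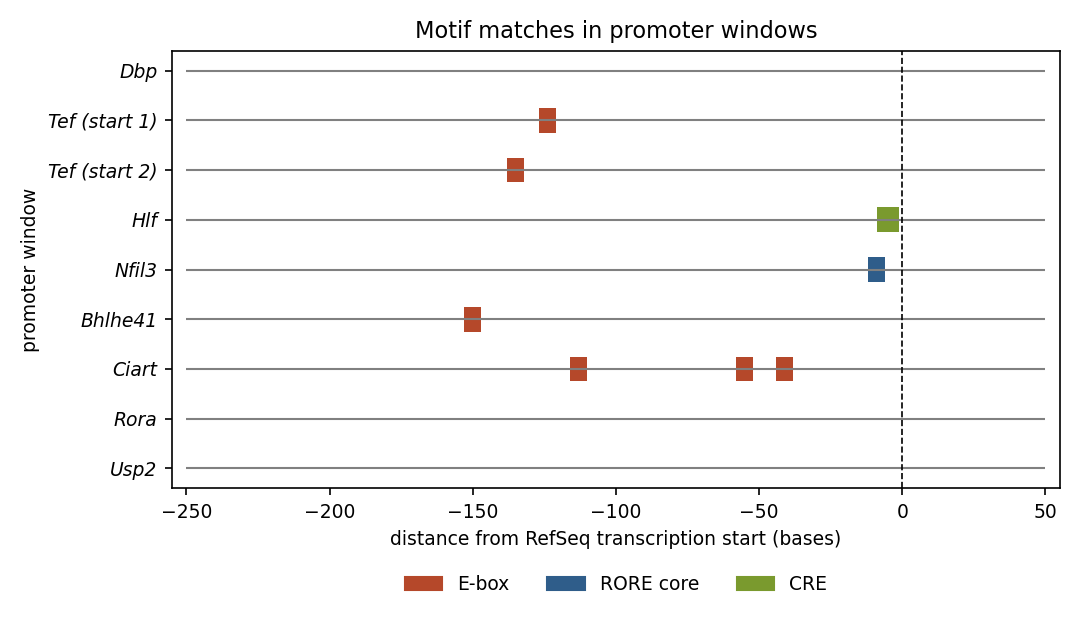
Position of motif matches in 9 RefSeq promoter windows, with distance from the transcription start in bases on the x axis (0 is the start) and 1 row per window. Boxes mark the E-box, the ROR element core and the cyclic AMP response element. Ciart carries 3 E-boxes upstream of its start, Tef 1 in each window and Bhlhe41 1.

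Atoh8, the targeted gene, stood at 10.2, 9.83 and 5.64 CPM in shAtoh8 replicates 1 to 3, and at 63.8, 16.8 and 16.4 CPM in shNC replicates 1 to 3. CPM are read counts scaled to a TMM-adjusted library size. The groups did not overlap. With all libraries the log2 fold change was -1.92 (SE 0.58, edgeR adjusted p = 0.197), which was not called by edgeR but was by DESeq2 (adjusted p = 0.0186). Without control replicate 1, described next, Atoh8 was called lower at a smaller log2 fold change of -0.95 (SE 0.23, edgeR adjusted p = 0.0115). Between 31912058 and 37969644 reads per library fell in genes. Control replicate 1 stood apart: its log2 CPM correlated with those of control replicates 2 and 3 at 0.916 and 0.907 (Pearson, across genes), against 0.984 between those, and between 0.980 and 0.985 among the shAtoh8 libraries. With the shAtoh8 libraries control replicate 1 correlated at 0.922 to 0.947, above its values with the other controls. Control replicates 2 and 3 correlated with the shAtoh8 libraries at 0.937 to 0.956. Control replicate 1 also had the lowest TMM factor (0.852, against 0.944 to 1.131 elsewhere) and mitochondrial share (2.435%, against 3.478% to 6.935%). What set it apart was not tested. Calls are therefore given with and without control replicate 1. The hepatocyte markers Alb, Ttr, Apoa1, Tat, Hnf4a, Serpina1a and Cps1 summed to between 98500 and 111700 CPM in shAtoh8 libraries, against between 100700 and 136400 CPM in shNC libraries, with 0 of 7 called by edgeR with all libraries. In that fit 0 of the 7 log2 fold changes were positive. Ttr and Cps1 were called lower by DESeq2 with all libraries (adjusted p = 0.0435 and 0.0463). They were also called lower without control replicate 1 (log2 fold changes -0.53 and -0.64, edgeR adjusted p = 0.0485 and 0.0469), where 16.1% of all genes were called lower.

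None of the 9 genes was called with all 6 libraries (edgeR quasi-likelihood test, Benjamini-Hochberg adjusted p under 0.05 over 13767 genes), where 0.864% of all genes tested were called. At an unadjusted p under 0.05 there were 4 of the 9, against 14.5% of all genes, and DESeq2 called 2 of the 9, against 6.78% of all genes. Of those 2, 1 was higher and 1 lower, against 4.62% and 2.16% of all genes. Without control replicate 1, edgeR called 6 of the 9, 2 higher and 4 lower in knockdown livers, where 16.5% of 14222 genes were called higher and 16.1% lower. Dbp and Bhlhe41 were the higher ones, and Hlf, Nfil3, Rora and Usp2 the lower ones. The median log2 fold change over the 9 genes was -0.49 with all libraries and -0.32 without control replicate 1, against -0.05 and 0.01 over all genes tested. The knockdown and control ranges of CPM did not overlap for 4 of the 9 genes with all 6 libraries, 1 higher and 3 lower, against 13.0% and 10.0% of all genes tested (23.1% in both directions together).

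**Figure D2:**
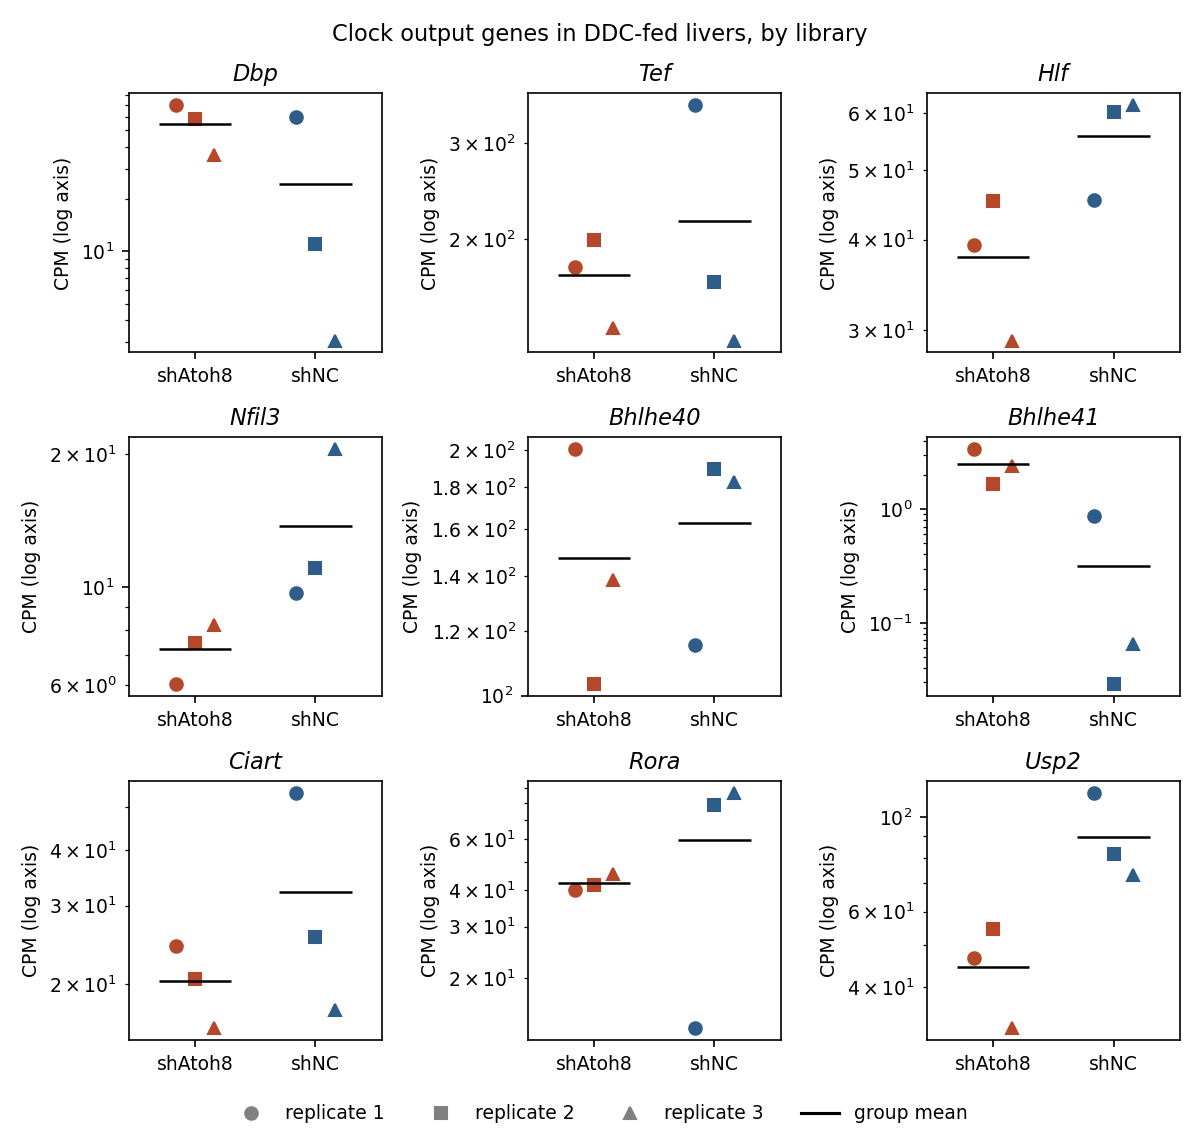
TMM-scaled CPM of the 9 clock output genes in every library, on a log axis whose range differs between panels, with shAtoh8 in red, shNC in blue, marker shapes for replicates 1 to 3 and a line at each group mean. For Dbp, Bhlhe41, Rora, Tef and Ciart control replicate 1 (blue circle) lies far from the other controls. For Usp2, Hlf and Nfil3 all controls lie above all knockdown libraries, and for Bhlhe41 all controls lie below them.

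Dbp (ENSMUSG00000059824, GRCm38 chromosome 7, 45705088 to 45710203, plus strand) encodes the D-box binding protein, a PAR bZIP factor with a wide daily swing in mouse liver. It stood at 69.8, 58.3 and 36.2 CPM in shAtoh8 replicates 1 to 3, and at 59.6, 11.1 and 3.05 CPM in shNC replicates 1 to 3. Control replicate 1 lay within the knockdown range, and the other controls lay below it. The highest control was 19.5 times the lowest, whereas the highest knockdown library was 1.93 times the lowest. The standard deviation of log2 CPM among controls was 2.14, larger than in 99.0% of all genes tested, whose median was 0.46. With all libraries Dbp had a log2 fold change of 1.16 (SE 0.91, edgeR adjusted p = 0.622). In the fit without control replicate 1 Dbp rose, with a log2 fold change of 2.95 (SE 0.46, edgeR adjusted p = 0.00133). Its exons share 539 bases, 18.0% of its exon bases, with Sphk2 on the opposite strand, a gene with 700 to 1432 reads per library. The sources used here do not state the strand setting of the read counting.

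Tef (ENSMUSG00000022389, chromosome 15, 81802421 to 81826863, plus strand) encodes thyrotroph embryonic factor, the second PAR bZIP activator. It stood at 177.9, 199 and 137 CPM in shAtoh8 replicates 1 to 3, and at 352, 167 and 130.2 CPM in shNC replicates 1 to 3. The groups overlapped, and control replicate 1 was the highest of all libraries. The log2 fold change was -0.34 (SE 0.38, edgeR adjusted p = 0.736) with all libraries and 0.22 (SE 0.18, edgeR adjusted p = 0.384) without control replicate 1, so its sign turned with that library and neither fit called it.

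Hlf (ENSMUSG00000003949, chromosome 11, 90336536 to 90390895, minus strand) encodes hepatic leukemia factor, the remaining PAR bZIP activator. It stood at 39.3, 45.2 and 29.0 CPM in shAtoh8 replicates 1 to 3, and at 45.5, 60.1 and 61.5 CPM in shNC replicates 1 to 3. All knockdown libraries lay below all controls, though knockdown replicate 2 and control replicate 1 nearly met. The log2 fold change was -0.56 (SE 0.23, edgeR adjusted p = 0.336) with all libraries. Hlf fell in the fit without control replicate 1 (log2 fold change -0.67, SE 0.17; edgeR adjusted p = 0.0130). The PAR bZIP genes thus received different calls without control replicate 1, Dbp higher, Hlf lower and Tef neither, and the differences between them were not tested.

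Nfil3 (ENSMUSG00000056749, chromosome 13, 52967209 to 52981073, minus strand) encodes the bZIP repressor that binds the D-box in place of the PAR factors. It stood at 6.01, 7.47 and 8.20 CPM in shAtoh8 replicates 1 to 3, and at 9.67, 11.0 and 20.5 CPM in shNC replicates 1 to 3. The groups did not overlap, and control replicate 3, the library lowest in Dbp, was the highest in Nfil3. With all libraries the log2 fold change was -0.93 (SE 0.33, edgeR adjusted p = 0.264). Nfil3 fell once control replicate 1 was left out (log2 fold change -1.11, SE 0.25; edgeR adjusted p = 0.00876).

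Dbp and Nfil3 act on the same element in opposite directions, so their ratio was taken per library on the length-scaled FPKM values of the authors. Dbp was 17.2, 12.1 and 7.93 times Nfil3 in shAtoh8 replicates 1 to 3, and 8.85, 1.60 and 0.227 times Nfil3 in shNC replicates 1 to 3. In control replicate 3 the repressor exceeded the activator, and control replicate 1 lay within the knockdown range. The log2 ratio averaged 3.56 ± 0.56 in knockdown livers and 0.56 ± 2.65 in controls (SD, n = 3 each), a difference of 3.00 (exact two-sided permutation test, p = 0.200, where 0.100 is the smallest p that 3 against 3 libraries allow).

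Bhlhe41 (ENSMUSG00000030256, chromosome 6, 145858243 to 145865558, minus strand) encodes DEC2, a basic helix-loop-helix repressor that competes for E-boxes. It was the rarest of the 9 transcripts, with 139, 64 and 103 reads in shAtoh8 replicates 1 to 3, and 26, 1 and 2 reads in shNC replicates 1 to 3. These came to 3.37, 1.67 and 2.40 CPM in the knockdown libraries, and 0.861, 0.0287 and 0.0650 CPM in the controls. Every knockdown library lay above every control, and control replicate 1 lay between the other controls and the knockdown libraries. The log2 fold change was 2.97 (SE 1.00, edgeR adjusted p = 0.235) with all libraries, and DESeq2 called the gene (2.98, adjusted p = 0.0414). Bhlhe41 rose without control replicate 1 (edgeR adjusted p = 0.000352), where the fitted log2 fold change of 5.67 depends on the prior count and is no bound. The summed knockdown reads were then 54.7 times the 3 control reads after scaling, with an exact 95% counting interval of 18.5 to 266.8. Scaled in the same way, they were 2.90 times the 26 reads of control replicate 1 (1.94 to 4.51). These intervals cover counting error only. Its exons share 1280 bases with Gm43909 on the opposite strand, which had 0 to 11 reads per library.

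Bhlhe40 (ENSMUSG00000030103, chromosome 6, 108660629 to 108666925, plus strand) encodes DEC1, the close relative of DEC2. It stood at 200.6, 103 and 138.5 CPM in shAtoh8 replicates 1 to 3, and at 115, 189.8 and 183 CPM in shNC replicates 1 to 3. The groups overlapped throughout, and the log2 fold change was -0.14 (SE 0.31, edgeR adjusted p = 0.870) with all libraries and -0.32 (SE 0.23, edgeR adjusted p = 0.318) without control replicate 1. In mouse macrophages these DEC factors are also expressed, so macrophage markers were set beside them. Of 7 macrophage and Kupffer cell markers, 0 passed edgeR with all libraries, where 0.864% of all genes passed. Without control replicate 1, 6 of the 7 were called higher, where 16.5% of all genes were. Their summed level was 355, 302 and 373 CPM in shAtoh8 replicates 1 to 3, and 382, 183 and 173 CPM in shNC replicates 1 to 3. In control replicate 1 the sum lay above the knockdown range, as did Gpnmb, Csf1r and Trem2, while Cd68, Adgre1 and Lyz2 lay within it and Clec4f below it. The part of macrophages in the Bhlhe41 and Dbp values was not tested. The 7 T, NK and B cell markers had 0 to 7 reads each per library, the 4 neutrophil markers 0 to 14, with Ly6g at 0 throughout. Of 5 cholangiocyte markers Krt7, Krt19 and Cftr had 0 to 15 reads per library, Epcam had 20 to 58 reads in shAtoh8 libraries and 9 to 23 in shNC libraries, and Sox9 had 342 to 547 reads in shAtoh8 libraries and 222 to 446 in shNC libraries. The 2 of these that were tested were called in neither fit. Stellate cell and fibroblast markers summed to 145 to 221 CPM in shAtoh8 libraries and 83.2 to 144 CPM in shNC libraries, with all 6 fold changes positive and 1 of 6, Acta2, called higher, at 36 to 52 reads in shAtoh8 libraries and 0 to 1 in shNC libraries. That call ended when any library other than control replicate 1 was left out. In the fit without control replicate 1, Acta2, Col1a1 and Col1a2 were called higher (log2 fold changes of 3.16 for Col1a1 and 2.04 for Col1a2), and Dcn, Lrat and Des were not called. Dcn stood at 79.1, 90.4 and 131.9 CPM in shAtoh8 replicates 1 to 3, and at 46.9, 115.7 and 112.4 CPM in shNC replicates 1 to 3. Lrat stood at 8.82, 7.68 and 16.6 CPM, and at 4.21, 14.5 and 10.7 CPM, in the same order. Both were thus lowest in control replicate 1. The part of stellate cells and fibroblasts in the values of the clock output genes was not tested. Endothelial markers summed to 101 to 145 CPM in shAtoh8 libraries and 116 to 130.4 CPM in shNC libraries, with 0 of 5 called in either fit. In RNA taken from many cells together, fewer cells of a type and less RNA per cell cannot be told apart.

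Ciart (ENSMUSG00000038550, chromosome 3, 95878503 to 95882251, minus strand) encodes CHRONO, a repressor that acts on CLOCK and BMAL1 and is itself driven through E-boxes. It stood at 24.3, 20.6 and 15.9 CPM in shAtoh8 replicates 1 to 3, and at 53.7, 25.5 and 17.5 CPM in shNC replicates 1 to 3. Control replicate 1 was again the highest library, and the other controls overlapped the knockdown range. The log2 fold change was -0.67 (SE 0.42, edgeR adjusted p = 0.525) with all libraries and -0.07 (SE 0.21, edgeR adjusted p = 0.813) without control replicate 1. In control replicate 1 Dbp, Bhlhe41, Ciart, Tef and Usp2 lay above the mean of the other controls on the log2 scale, by 3.34, 3.19, 1.34, 1.26 and 0.56. The Bhlhe41 value rests on 26 reads against 1 and 2, and depends on the prior count. Hlf, Nfil3 and Rora lay at -0.42, -0.63 and -2.62 relative to that mean. Bhlhe40, for which no promoter window was found, lay at -0.69. E-boxes outside the promoter windows were not searched, and the Usp2 window lies inside the gene. A link between E-boxes and these values was not tested.

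Rora (ENSMUSG00000032238, chromosome 9, 68653786 to 69388246, plus strand) encodes the nuclear receptor ROR alpha, which activates Bmal1 and other genes through the ROR element. It stood at 40.2, 41.8 and 45.6 CPM in shAtoh8 replicates 1 to 3, and at 13.4, 79.0 and 86.7 CPM in shNC replicates 1 to 3. The knockdown libraries were tightly grouped between control replicate 1 below and the other controls above. The standard deviation of log2 CPM was 0.09 among knockdown libraries and 1.51 among controls. The spread among controls was larger than in 93.8% of genes tested. With all libraries the log2 fold change was -0.49 (SE 0.59, edgeR adjusted p = 0.753). Rora fell when control replicate 1 was left out (log2 fold change -0.95, SE 0.12; edgeR adjusted p = 0.000649).

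Usp2 (ENSMUSG00000032010, chromosome 9, 44067021 to 44095627, plus strand) encodes a deubiquitinating enzyme whose transcript is rhythmic in many mouse tissues and which acts on clock proteins. It stood at 46.7, 54.6 and 32.0 CPM in shAtoh8 replicates 1 to 3, and at 113.8, 81.9 and 73.2 CPM in shNC replicates 1 to 3. All controls lay above all knockdown libraries, and control replicate 1 was the highest. Its log2 fold change of -1.01 (SE 0.27) had the smallest p of the 9 genes and did not pass by edgeR (adjusted p = 0.157), whereas DESeq2 called it lower (-1.02, adjusted p = 0.0190). Leaving out control replicate 1, Usp2 fell by edgeR too (log2 fold change -0.79, SE 0.19; adjusted p = 0.0110), so its direction did not rest on that library.

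**Figure D3:**
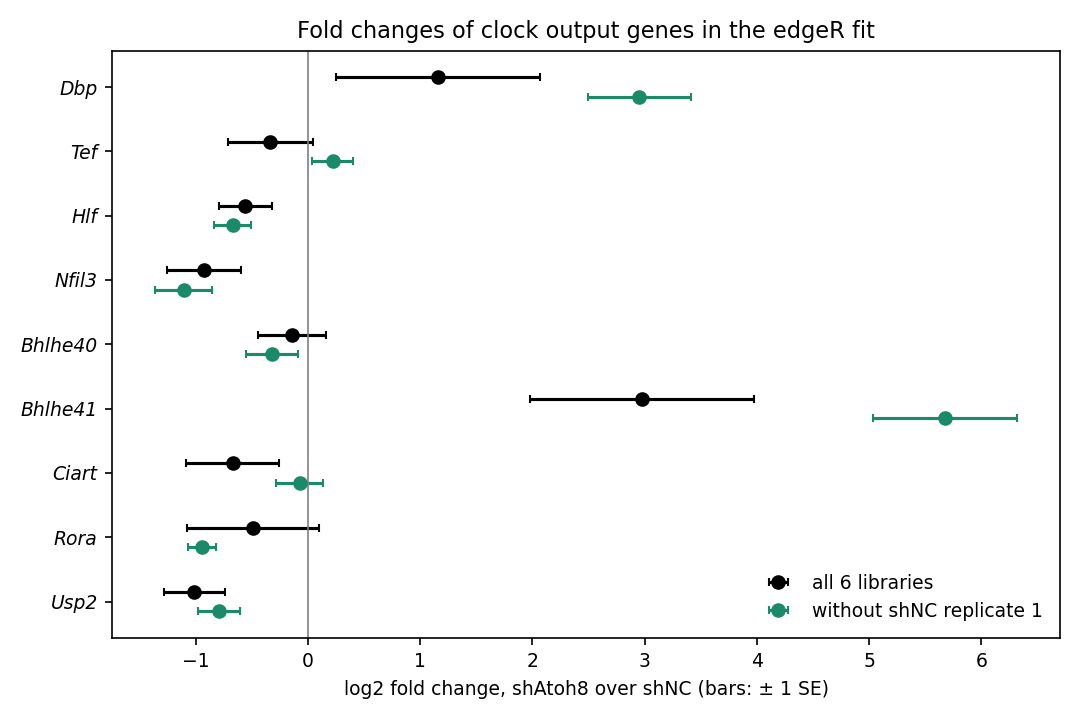
Log2 fold change of each gene, shAtoh8 over shNC, in the edgeR fit with all 6 libraries (black) and without shNC replicate 1 (green), with bars of 1 SE to each side. Leaving out that library moved Dbp to 2.95 and Bhlhe41 to 5.67 and turned the sign of Tef, whereas Hlf, Nfil3 and Usp2 stayed between -0.56 and -1.11.

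Per length of transcript, on the FPKM scale, Bhlhe40 and Tef were the most abundant of the 9 in both groups. In knockdown livers the order was Bhlhe40 at 56.5 ± 18.9, Tef at 53.4 ± 9.54, Dbp at 42.9 ± 8.79, Ciart at 18.9 ± 5.97, Usp2 at 17.3 ± 2.25, Hlf at 11.2 ± 3.29, Rora at 5.69 ± 0.573, Nfil3 at 3.61 ± 0.639 and Bhlhe41 at 0.739 ± 0.225 FPKM (SD, n = 3). The ranges of Bhlhe40 and Tef, of Tef and Dbp, and of Ciart and Usp2 overlapped there, and the other neighbours in the order did not. In controls the order was Tef at 70.6 ± 37.5, Bhlhe40 at 65.0 ± 17.0, Usp2 at 33.8 ± 7.27, Ciart at 29.3 ± 19.1, Hlf at 19.1 ± 1.31, Dbp at 17.5 ± 21.2, Rora at 7.92 ± 4.69, Nfil3 at 6.59 ± 2.67 and Bhlhe41 at 0.119 ± 0.167 FPKM (SD, n = 3). All neighbours overlapped among controls except Bhlhe40 with Usp2 and Nfil3 with Bhlhe41.

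Among 16 tested core clock genes 0 were called lower and 0 higher with all libraries by edgeR, against 0.123% of all genes called lower and 0.741% called higher. At an unadjusted p under 0.05 there were 5 of the 16, where 14.5% of all genes passed. DESeq2 called Nr1d1 and Npas2 higher and Cry1 and Per2 lower, against 4.62% of all genes called higher and 2.16% called lower. Npas2 had 21, 21 and 43 reads in shAtoh8 replicates 1 to 3, and 2, 0 and 1 in shNC replicates 1 to 3. Depth thus limits the size of its change. Without control replicate 1, edgeR called 3 higher and 4 lower, where 16.5% of all genes were higher and 16.1% lower. Nr1d1, which encodes REV-ERB alpha, the repressor that acts through the ROR element, stood at 83.9, 68.1 and 77.6 CPM in shAtoh8 replicates 1 to 3, and at 18.0, 6.77 and 2.89 CPM in shNC replicates 1 to 3 (log2 fold change 3.06, edgeR adjusted p = 0.0801 with all libraries and 0.000109 without control replicate 1). Its controls had the same order as those of Dbp, highest in control replicate 1 and lowest in control replicate 3. Tef, Ciart, Usp2, Per1, Cry2, Csnk1d and the hepatocyte markers Alb, Apoa1, Serpina1a and Cps1 had that order too. Cry1, a repressor of CLOCK and BMAL1, stood at 4.51, 7.003 and 5.85 CPM in shAtoh8 replicates 1 to 3, and at 15.9, 19.0 and 32.6 CPM in shNC replicates 1 to 3 (log2 fold change -1.96, edgeR adjusted p = 0.0524 with all libraries and 0.000363 without control replicate 1). Cry1 was highest in control replicate 3, as were Nfil3, Hlf, Rora, Clock and Per2. Npas2 and Timeless were the other core genes called higher without control replicate 1, and Clock, Per2 and Fbxl21 the others called lower. Per2, the period gene among these, stood at 37.7, 41.9 and 21.0 CPM in shAtoh8 replicates 1 to 3, and at 69.8, 79.7 and 92.1 CPM in shNC replicates 1 to 3. Arntl, which encodes BMAL1 and was singled out after its values were seen, stood at 3.39, 3.69 and 5.66 CPM in shAtoh8 replicates 1 to 3, and at 1.16, 4.33 and 12.3 CPM in shNC replicates 1 to 3. Its controls ran opposite to those of Dbp, lowest in control replicate 1 and highest in control replicate 3. The controls of Hlf, Nfil3, Rora, Clock, Cry1 and Per2 ran in that direction too. The share of all genes with either order was not counted.

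**Figure D4:**
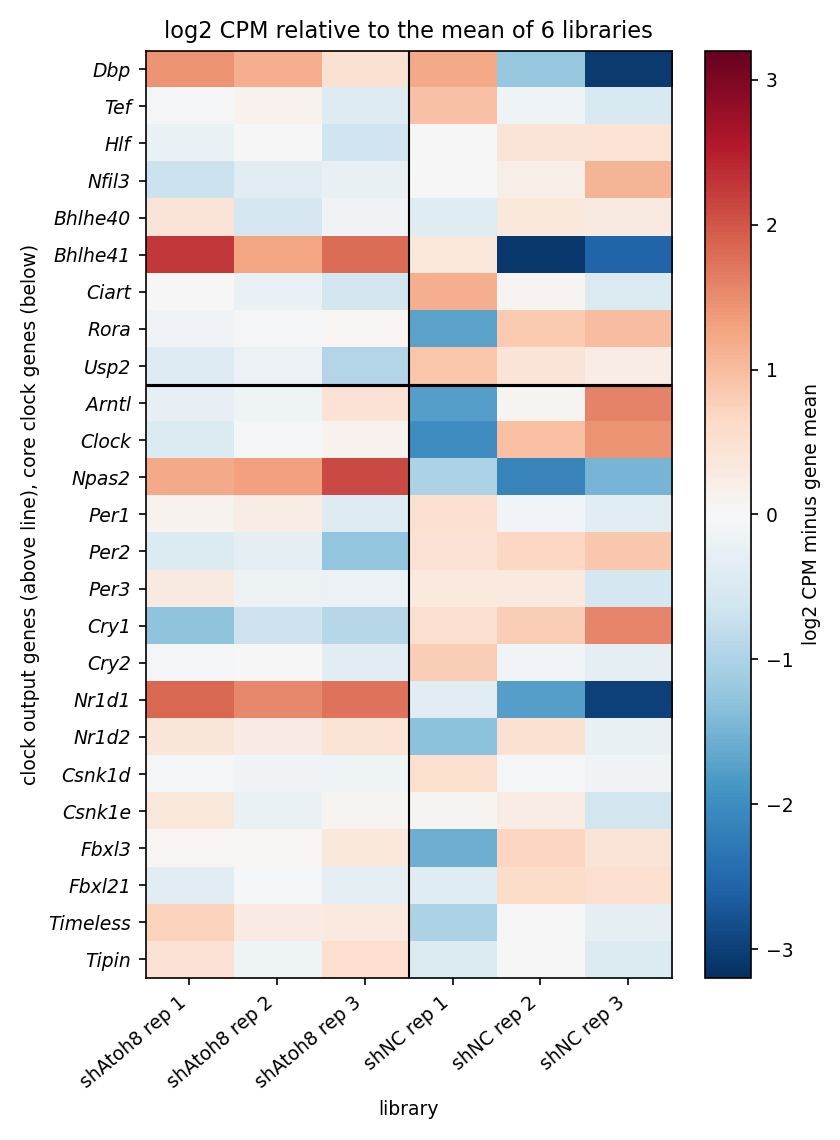
Log2 CPM of each gene minus its mean over the 6 libraries, with libraries on the x axis (shAtoh8 left of shNC), clock output genes above the line and core clock genes below it, and red for above the mean. Dbp, Tef, Nr1d1, Per3, Csnk1e and Tipin have their lowest value in control replicate 3. Nfil3, Hlf, Rora, Cry1, Arntl, Clock and Per2 have their highest there.

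The PAR bZIP factors are reported to drive genes of drug, heme and lipid metabolism in mouse liver. Of 11 such genes tested, 2 were called lower and 0 higher with all libraries, where 0.123% of all genes were lower and 0.741% higher. DESeq2 called 7 lower and 0 higher with all libraries, against 2.16% and 4.62% of all genes. Without control replicate 1, edgeR called 9 lower and 1 higher, where 16.1% of all genes were lower and 16.5% higher. Their median log2 fold change was -1.31 with all libraries and -1.17 without control replicate 1, and that of all genes tested was -0.05 and 0.01. Nr1i3, which encodes the xenobiotic receptor CAR, and Alas1, the first enzyme of heme synthesis, were the 2 called in both fits (log2 fold changes -1.62 and -1.98, edgeR adjusted p = 0.0348 and 0.0368). Both calls ended when any library other than shNC replicate 1 was left out (edgeR adjusted p between 0.0772 and 0.244), with the replicate block (edgeR adjusted p = 0.0589 and 0.0630) and by limma with no filter (adjusted p = 0.0608 and 0.0725). Both held by DESeq2 (adjusted p = 4.8e-08 and 1.8e-08), with median ratio size factors, by edgeR with no filter and by limma with its filter. Por, the electron donor of the microsomal P450 enzymes, stood at 452, 760.0 and 435 CPM in shAtoh8 replicates 1 to 3, and at 2628, 1239 and 1250.0 CPM in shNC replicates 1 to 3 (log2 fold change -1.64, edgeR adjusted p = 0.124 with all libraries and 0.00436 without control replicate 1). Cyp2b10, Cyp2a5, Cyp7a1, Acot3, Acot4 and Ppara were the other ones called lower without control replicate 1, and Acot1 the one called higher. Cyp2a5 and Cyp2a4, Cyp2b10 and its family, and the Acot genes resemble each other in sequence, so the split of reads between them is less certain. Without control replicate 1 Dbp was called higher and Hlf lower, while 9 of the 11 targets were lower and Acot1 and Cyp2a4 had positive log2 fold changes (0.72 and 0.38).

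The genes whose profile over the 6 libraries lay nearest to that of Dbp were sought among 4215 genes that averaged 1 CPM or more and had a standard deviation of 0.5 or more in log2 CPM. The measure was the root mean square difference of log2 CPM after centring each gene on its mean, which had a median of 1.94 over these genes. The nearest were Trib3, a pseudokinase gene (0.13), Gal3st1, a sulfotransferase gene (0.18), Slc7a1, a cationic amino acid transporter gene (0.28), Rasal1 (0.44) and Adgrf1 (0.46). Trib3 stood at 17.3, 13.3 and 9.32 CPM in shAtoh8 replicates 1 to 3, and at 14.8, 2.78 and 0.910 CPM in shNC replicates 1 to 3. Among the clock output genes Bhlhe41 was nearest to Dbp (1.07) and Rora farthest (2.35). This is a description over 6 libraries, and of the 5 genes nearest to Dbp edgeR and DESeq2 called 0 with all of them, with 1 at an unadjusted p under 0.05 by edgeR. All 5 were called higher by edgeR without control replicate 1 (adjusted p between 0.000497 and 0.0261), as was Dbp, where 16.5% of all genes were called higher. The 5 were chosen for likeness to Dbp over the same libraries, so calls shared with Dbp follow from that choice.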

How the data were processed

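Liver RNA libraries were compared, 6 in all, 3 labelled shAtoh8 and 3 labelled shNC, with groups and replicate numbers taken from the titles. The authors deposited raw read counts per gene for each library and a table of FPKM values, which divide by transcript length and library size. FastQC, Trim Galore, HISAT2 (listed as 2.10), HTSeq, Cufflinks 2.2.1 and GRCm38 (mm10) are named per the submitters' processing notes. Reads outside genes made up 2.48% to 5.66% and ambiguous reads 4.69% to 6.87% of each library, and both were left out.

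After filterByExpr and TMM scaling, counts were tested on group with the edgeR 4.0.16 quasi-likelihood test in R 4.3.3, with Benjamini-Hochberg adjustment over 13767 genes and a threshold of 0.05. The standard error is the log2 fold change divided by the square root of F. A floor of 3 reads was 0.0699 to 0.0994 CPM. Log2 CPM used a prior count of 2. The alternatives were no filter, median ratio size factors, DESeq2 1.42.0, limma 3.58.1 on log2(FPKM + 1) and log2(FPKM + 0.1), the replicate block and each library left out. Limma was run on genes that reached 0.5 FPKM in 3 libraries, and with no filter. Coordinates come from GENCODE M21 and promoters from RefSeq. No 2 replicates agreed within sampling noise (chi-square per gene at least 50.2).

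The genes, lists and tests were chosen with earlier results of these data known. Named were the 9 genes, Atoh8, members of the core clock and target lists that passed with all libraries or without shNC replicate 1 (with room for others of small p), and the 5 profiles nearest to Dbp. Of the core clock list, 1 gene is not reported here and is left out of the list's counts.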

Additional observations from a re-analysis of the deposited data

How the results depend on the processing

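Over the 9 genes and 13 alternatives each, the call and direction matched the fit with all libraries in 107 of 117 cases, a call was gained in 8, and the sign turned in 2, in which neither fit called the gene. Tef was 0.22 without shNC replicate 1 and Bhlhe40 0.11 without shAtoh8 replicate 2, in ranges of -0.60 to 0.22 and -0.38 to 0.11 with 1 library left out, and the cause was not tested. The fit with all libraries called 0 of the 9 genes, so a match meant no call and the same sign. Where an alternative called no gene at all, as without shAtoh8 replicate 1, the match on the call was fixed in advance. Sizes still moved, as the Dbp log2 fold change lay between 0.63 and 2.95 with 1 library left out. The number of the 9 genes called was 0 with all libraries, 2 by DESeq2 and between 0 and 6 with 1 library left out, where the 6 came without shNC replicate 1. Over all genes, 102 were higher and 17 lower with all libraries, 636 and 298 by DESeq2, 213 and 34 with no filter, 107 and 27 by limma on log2(FPKM + 1), and 40 and 7 by limma with no filter. With 1 library left out these counts lay between 0 and 2348 and between 0 and 2284. The count fell to 0 without shAtoh8 replicate 1, shAtoh8 replicate 3 or shNC replicate 2, where 1130, 1224 and 1633 genes had an unadjusted p under 0.05. It fell to 10 and 0 without shAtoh8 replicate 2, and to 20 and 1 without shNC replicate 3. Shared replicate numbers are not stated to mark a shared animal, litter or day. Deviations of same-numbered libraries from their group means correlated at 0.253, -0.0820 and 0.290, and those of differently numbered ones at -0.331 to 0.270. Such correlations cannot decide whether libraries were paired, since deviations from a mean of 3 libraries depend on each other. With the replicate block 33 genes were higher, 2 lower and 0 of the 9 called. The difference in the log2 ratio of Dbp to Nfil3 lay between 1.65 and 4.30 with 1 library left out. At 1 to 2 reads in shNC replicates 2 and 3, depth limits the size of the Bhlhe41 change.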
